A study of Mus musculus with 79 samples.

Results

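The 26 genes described here make, transport, break down or respond to the inhibitory transmitter GABA in the mouse hypothalamus. They were taken by name from the 25965 rows of the deposited expression table, as 13 subunits of GABA-A receptors, 3 rho subunits, 2 GABA-B receptor subunits, 3 enzymes, 3 transporters and 2 proteins of the inhibitory postsynapse, and they include the Gabrg1, Gabra2, Gabra4 and Gabrb1 cluster on chromosome 5. They were selected on function and on the expression contrast of these same libraries, in which Gabra2 was already known to be lower in Δ/D329A, so expression differences between genotypes are given as a description, and calls of members in fits over all genes are counted without being used as evidence. Expression was measured by RNA-seq in 5 Dnmt3a +/+ and 4 Dnmt3a Δ/D329A animals, and H3K4me3, H3K27me3, H3K36me3 and input chromatin in 3 animals of each genotype. All animals were 14 weeks old and each library came from the hypothalamus of 1 animal. The paper's legends differ on the sex of the RNA-seq animals, female for Dnmt and Tet expression and male for the browser views. The latter legend gives the ChIP animals as male too. In Δ/D329A animals the maternal Dnmt3a allele lacks exon 18, which was removed in the oocyte by Zp3-Cre, and the paternal allele carries the D329A substitution in the PWWP domain. The mutation was made in C57BL/6 embryonic stem cells and the carriers were crossed to C57BL/6Babr mice. Reads assigned to genes numbered between 5495893 and 9729552 in +/+ libraries and between 3837324 and 6523776 in Δ/D329A libraries, and mapped ChIP reads between 12676361 and 30207875. For H3K4me3 the median tile held 5 reads in Δ/D329A replicate 1, which thus stood apart, and 1 to 3 reads in the other 5 animals. The expression table counts whole genes, so neither Dnmt3a allele could be checked from it.

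GABA is made from glutamate by the glutamate decarboxylases encoded by Gad1 and Gad2 and is loaded into synaptic vesicles by the transporter encoded by Slc32a1. Released GABA opens GABA-A receptors, chloride channels built from several subunits whose choice sets their kinetics, drug sensitivity and place in the membrane, and activates GABA-B receptors, which are coupled to G proteins. Astrocytes and other cells take it up, and the transaminase encoded by Abat breaks it down. In the hypothalamus most of the nuclei that control feeding, sleep and hormone release hold GABA neurons. H3K4me3 marks promoters that are open or active, H3K27me3 is laid down by Polycomb complexes at silenced developmental genes, and H3K36me3 lies over the bodies of transcribed genes, where the PWWP domain of DNMT3A is thought to bind it.

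The promoters of 5 genes on which the results below turn are shown first, because DNMT3A acts on CpG sites and the chromatin marks were compared over these promoters. Each is the RefSeq sequence of build GRCm38.p6 from 250 bases before to 50 bases after the RefSeq start, read along the gene, with CpG dinucleotides in capitals.
Gad2: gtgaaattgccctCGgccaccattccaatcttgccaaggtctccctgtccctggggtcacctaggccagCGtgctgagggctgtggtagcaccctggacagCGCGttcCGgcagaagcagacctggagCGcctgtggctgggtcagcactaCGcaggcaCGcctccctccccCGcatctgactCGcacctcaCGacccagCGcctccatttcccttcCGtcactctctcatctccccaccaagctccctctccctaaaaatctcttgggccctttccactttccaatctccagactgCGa
Gad1: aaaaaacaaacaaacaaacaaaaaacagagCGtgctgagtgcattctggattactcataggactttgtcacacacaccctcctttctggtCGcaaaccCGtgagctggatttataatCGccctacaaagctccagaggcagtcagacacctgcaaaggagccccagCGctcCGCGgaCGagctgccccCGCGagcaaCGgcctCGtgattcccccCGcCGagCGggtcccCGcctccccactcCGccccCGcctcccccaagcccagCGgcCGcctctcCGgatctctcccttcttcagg
Slc32a1: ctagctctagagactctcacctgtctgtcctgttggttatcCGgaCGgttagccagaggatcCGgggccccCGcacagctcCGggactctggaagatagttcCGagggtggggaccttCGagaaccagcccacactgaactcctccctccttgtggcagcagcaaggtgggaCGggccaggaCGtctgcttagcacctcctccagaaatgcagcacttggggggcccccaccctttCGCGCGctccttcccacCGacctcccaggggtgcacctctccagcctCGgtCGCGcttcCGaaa
Gabra2: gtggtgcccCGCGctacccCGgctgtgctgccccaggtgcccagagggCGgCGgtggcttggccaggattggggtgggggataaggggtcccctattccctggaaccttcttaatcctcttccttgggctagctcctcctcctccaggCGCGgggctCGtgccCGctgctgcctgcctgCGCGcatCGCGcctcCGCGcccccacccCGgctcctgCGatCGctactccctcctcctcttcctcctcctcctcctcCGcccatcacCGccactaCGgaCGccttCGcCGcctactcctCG
Gabrr2: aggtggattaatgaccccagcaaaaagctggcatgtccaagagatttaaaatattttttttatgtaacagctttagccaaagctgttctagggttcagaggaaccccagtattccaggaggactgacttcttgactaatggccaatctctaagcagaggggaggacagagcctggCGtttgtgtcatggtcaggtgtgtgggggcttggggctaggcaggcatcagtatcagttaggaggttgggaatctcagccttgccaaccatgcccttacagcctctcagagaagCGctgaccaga
They lie at chr2:22622077-22622376 on the plus strand for Gad2, chr2:70561879-70562178 on the plus strand for Gad1, chr2:158610508-158610807 on the plus strand for Slc32a1, chr5:71095800-71096099 on the minus strand for Gabra2 and chr4:33062862-33063161 on the plus strand for Gabrr2. The Gad2 promoter holds 14 CpG, a number reached by 36.3% of the 32851 promoters in the RefSeq set, Gad1 holds 21 (reached by 24.8%), Slc32a1 holds 17 (31.4%) and Gabra2 holds 25 (18.4%). The Gabrr2 promoter holds 2 CpG, and 85.9% of all promoters hold at least as many. Of the 26 genes, 24 had a promoter in this set, with a median of 13.5 CpG beside 7 over all promoters. Gabbr2 had the most, with 46, and Gabra3 had none in either of its promoters.

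In +/+ animals the most highly expressed members were genes for GABA uptake, breakdown and synthesis and a GABA-B subunit, while other transport genes stood lower. Levels are in RPKM, which divides by gene length and library size and so allows genes to be compared. Slc6a11, an astrocyte GABA transporter, had the highest mean level with 56.0 ± 19.7 RPKM (SD, n = 5), followed by Abat with 39.7 ± 10.9, the GABA-B subunit Gabbr1 with 37.5 ± 11.6 and Gad2 with 36.2 ± 5.40. The other GABA-B subunit, Gabbr2, stood at 22.3 ± 5.01 RPKM, Gad1 at 16.3 ± 2.79 and Slc32a1 at 11.8 ± 2.40. Among the GABA-A subunits Gabrb1 was highest with 19.1 ± 2.60 RPKM. Gabra3, Gabrb2, Gabra2, Gabrg1, Gabrq and Gabra5 formed a continuous series from 16.1 down to 10.1 RPKM, with Gphn (gephyrin, the scaffold under inhibitory synapses) at 12.1 and Nlgn2 (neuroligin-2, the adhesion protein of the same synapses) at 10.8. Gabra4 followed at 7.41 ± 1.31, Gabrg3 at 3.62 ± 0.189 and Gabre at 2.04 ± 0.345. The lowest tested members were Slc6a13 at 1.60 ± 0.752, Gabrd at 0.688 ± 0.323 and Gabrr2 at 0.144 ± 0.0216. With all tested members ranked by mean log2 level, the +/+ libraries of neighbouring genes overlapped in most cases. The exceptions were Gabra4 and Gabrg3, Gabrg3 and Gabre, and Gabrd and Gabrr2. Gabra6, Gabrp, Gabrr1 and Gabrr3 were at or near the limit of detection, with 6, 3, 19 and 3 reads in all 9 libraries, and did not reach the filter of 0.1 RPKM in 4 libraries. The other 22 members passed it.

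**Figure D1:**
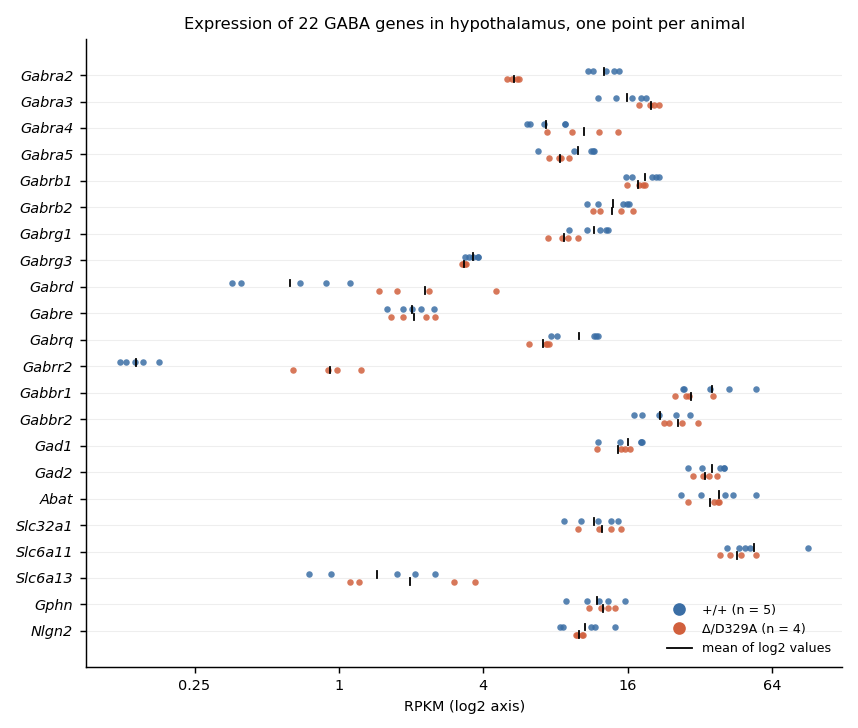
Expression of the 22 members that passed the filter, in RPKM on a log2 axis, with 1 point per animal for +/+ (n = 5) and Δ/D329A (n = 4) and a bar at the mean of the log2 values. The genotypes are fully apart at Gabra2 and Gabrq, lower in Δ/D329A, and at Gabrd and Gabrr2, higher in Δ/D329A.

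Gabra2, which encodes the alpha2 subunit found at many inhibitory synapses of the forebrain and hypothalamus, was lower in every Δ/D329A animal. It measured 13.0, 14.7, 14.1, 11.5 and 10.9 RPKM in the +/+ libraries (572, 549, 450, 426 and 439 reads) and 5.51, 5.01, 5.66 and 5.26 RPKM in the Δ/D329A libraries (193, 126, 180 and 140 reads). The genotypes were far apart, with the highest Δ/D329A library at 5.66 and the lowest +/+ library at 10.9 RPKM, and the mean difference was -1.25 on the log2 scale (SE 0.130), or 2.38-fold lower. In bulk tissue fewer cells of a type and less RNA per cell cannot be told apart. C57BL/6 substrains are known to differ in Gabra2 expression, the sources used here do not give the substrain of each animal at this locus, and its part in the difference was not tested. Of all 17839 genes tested by limma, 19 (0.107%) passed an adjusted p of 0.01, and 2 of the 22 members were among them, Gabra2 on the lower and Gabrr2 on the higher side. Since the contrast was known when the members were chosen, nothing is read from that share. With edgeR on whole reads recovered from the RPKM values, 0.432% of all genes passed and Gabrd joined the pair, and with DESeq2 1.53% passed and Gabrd, Gabrg1 and Gabrq joined it. The limma call of Gabra2 was lost when +/+ replicate 3 or any 1 of the 4 Δ/D329A libraries was left out, and that of Gabrr2 without Δ/D329A replicate 4. The log2 difference of Gabra2 stayed between -1.20 and -1.31 over all 9 of these fits and that of Gabrr2 between 2.53 and 2.85.

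The other genes of the chromosome 5 cluster had smaller differences, and not all of the same sign. The cluster spans 1387343 bp of chromosome 5 (build GRCm38), with Gabrg1 at 70751047 to 70842617, Gabra2 at 70961057 to 71095849 and Gabra4 at 71569734 to 71658308, all on the minus strand, and Gabrb1 at 71699932 to 72138389 on the plus strand. Gabrg1, a gamma subunit gene that lies 118439 bp from Gabra2, measured 12.3, 13.3, 13.1, 10.8 and 9.14 RPKM in +/+ and 8.56, 7.47, 9.97 and 8.99 RPKM in Δ/D329A, so that 1 mutant library lay above the lowest +/+ library (log2 difference -0.41, SE 0.151). Gabra4, whose product is typical of receptors outside the synapse, ran the other way, from 6.07 to 8.77 RPKM in +/+ and 14.6, 9.38, 7.41 and 12.1 RPKM in Δ/D329A, with overlap (0.52, SE 0.210). Gabrb1, the beta subunit of the cluster, had nearly equal levels, with 15.8 to 21.6 RPKM against 15.9 to 18.8 RPKM (-0.09, SE 0.141).

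Ratios within a library, which do not depend on how libraries were scaled, separated the genotypes for each pair with Gabra2. The ratio of Gabra2 to Gabrb1 was 0.618 to 0.728 in the 5 +/+ libraries and 0.293 to 0.315 in the 4 Δ/D329A libraries. The ratio of Gabra2 to Gabrg1 was 1.06 to 1.19 against 0.568 to 0.670, and that of Gabra2 to Gabra4 1.60 to 1.89 against 0.379 to 0.764. These ratios rest on the Gabra2 values known when the genes were chosen, so their separation is a description and adds no support. In the ratio to Gabra4, the log2 difference of 0.52 in Gabra4 itself also enters. Within 2 Mb of the cluster 27 other genes were tested, of which 4 had no read in any library, and none was called by limma, with a median log2 difference of 0.04. Zar1, an oocyte gene, was outside the range of the other genotype with 32 reads over the +/+ libraries and 1 read over the Δ/D329A libraries, too few for a fold change. Gm17207 was outside it on the higher side, with 4 reads over the +/+ and 5 over the Δ/D329A libraries, also too few.

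Gabrr2 and Gabrd were higher in Δ/D329A. Gabrr2, a rho subunit known chiefly from the retina, had 5, 5, 5, 4 and 5 reads in +/+ and 38, 20, 18 and 23 reads in Δ/D329A, which is 0.129, 0.152, 0.178, 0.123 and 0.141 RPKM against 1.23, 0.903, 0.644 and 0.982 RPKM. The lowest mutant library was above every +/+ library, with a log2 difference of 2.68 (SE 0.222), or 6.40-fold. Its neighbour Gabrr1, another rho subunit 36655 bp away on chromosome 4, had 7 reads over the +/+ and 12 over the Δ/D329A libraries and could not be compared at this depth. Gabrd encodes the delta subunit, which places receptors outside the synapse and makes them respond to low, tonic GABA. It measured 1.12, 0.690, 0.884, 0.359 and 0.392 RPKM in +/+ and 4.54, 1.75, 1.47 and 2.38 RPKM in Δ/D329A, without overlap (1.88 on the log2 scale, SE 0.412).

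Markers of the neighbouring thalamus moved in the same direction as Gabrd and Gabrr2. The summed level of the 5 thalamus markers was 9.11 to 15.1 RPKM in +/+ and 31.8, 22.1, 12.3 and 20.4 RPKM in Δ/D329A replicates 1 to 4, with all 5 differences above 0, a median log2 difference of 0.67 and no marker without reads in any library. Replicate 1 of Δ/D329A was the highest library for this sum, for Gabrd, for Gabrr2 and for Gabra4. The part of thalamic tissue in these values was not tested. Markers of choroid plexus summed to 1.42 to 2.89 RPKM in +/+ and 2.40 to 5.02 RPKM in Δ/D329A, with Ttr higher and Kl lower and Folr1 without a read in at least 1 library. The hypothalamus markers, all detected in every library, summed to 355.7 to 745 RPKM in +/+ and 416.1 to 622.4 RPKM in Δ/D329A.

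Gabrq, the theta subunit gene, which is expressed mainly in hypothalamus and brainstem, was the other member whose genotypes did not overlap. It measured 11.8, 11.6, 11.99, 8.09 and 7.68 RPKM in +/+ and 7.31, 6.24, 7.55 and 7.41 RPKM in Δ/D329A (-0.50 on the log2 scale, SE 0.173). The gap between the groups was narrow, with the highest mutant library at 7.55 RPKM and the lowest +/+ library at 7.68 RPKM. Over all tested genes 317 (1.78%) were higher and 219 (1.23%) lower in Δ/D329A without overlap, and the 4 members above belong to these. The remaining GABA-A subunit genes had smaller differences, with log2 differences of 0.33 (SE 0.159) for Gabra3, -0.25 (SE 0.174) for Gabra5, -0.01 (SE 0.175) for Gabrb2, -0.12 (SE 0.114) for Gabrg3 and 0.03 (SE 0.187) for Gabre, each with overlapping libraries.

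Genes for GABA synthesis, release and uptake had overlapping levels in both genotypes. Gad1 ranged from 12.02 to 18.3 RPKM in +/+ and 11.9 to 16.5 RPKM in Δ/D329A (log2 difference -0.13, SE 0.169). Gad2 ranged from 28.5 to 40.5 RPKM in +/+ and 29.9 to 37.9 RPKM in Δ/D329A (-0.09, SE 0.159). Slc32a1 ranged from 8.69 to 14.6 RPKM in +/+ and 9.94 to 15.1 RPKM in Δ/D329A (0.11, SE 0.186). The 3 genes that define a GABA neuron therefore overlapped between genotypes over most of their range. Abat differed by -0.13 (SE 0.217), Slc6a11 by -0.24 (SE 0.232) and Slc6a13, a transporter of the meninges and brain barriers, by 0.45 (SE 0.461), all with overlap and the last with the widest spread between animals. The GABA-B subunits Gabbr1 (-0.30, SE 0.226) and Gabbr2 (0.25, SE 0.188) had differences of opposite sign, and Gphn (0.09, SE 0.171) and Nlgn2 (-0.07, SE 0.167) were near 0. Over the 22 tested members 9 differences were above and 13 below 0, with a median of -0.08 beside 0.07 over all genes.

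Other genes of the pathway were taken from lists of GABA neuron transcription factors, peptides and calcium-binding proteins, GABA precursors, GABA-B effectors, chloride transporters and receptor trafficking proteins. Of the 46 tested, none passed the threshold by limma and 3 had an unadjusted p below 0.05, beside 1360 of all 17839 genes. Among the 46 differences 27 were above and 19 below 0 (median 0.08). Slc12a2, the sodium-potassium-chloride importer that raises chloride inside neurons and glia, had a mean of 10.2 ± 1.79 RPKM in +/+ (n = 5) and 6.92 ± 1.09 in Δ/D329A (n = 4), without overlap. In the lists of cell type and region markers 0 of 55 tested genes passed by limma. At an unadjusted p below 0.05 were 11 of the 55, a higher share than over all genes. Over the pathway and marker lists together edgeR called 2 genes and DESeq2 called 7. Among the markers Mobp, a myelin gene, and Kl were lower without overlap and Ttr, Tbr1 and Ppp1r1b were higher without overlap. Over all tested genes 1.78% were higher and 1.23% lower without overlap. Tbr1 had few reads, 37 over the +/+ and 79 over the Δ/D329A libraries, and the other cortex markers did not follow it. Fezf2 differed by -0.59, Neurod6 by -0.40 and Nrgn by 0.05, all with overlap. Neurod2 was below the filter and lower without overlap. The summed cortex list was 6.885 to 13.0 RPKM in +/+ and 7.48 to 9.88 in Δ/D329A. Ppp1r1b, a gene of striatal projection neurons that are themselves GABA neurons, had 1.59 ± 0.403 RPKM in +/+ and 3.13 ± 0.269 in Δ/D329A, and the summed striatum list was 7.26 to 12.6 against 9.27 to 10.4 RPKM.

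In +/+ chromatin the promoters of the members fell into several kinds. The promoter was taken from 1500 bp before to 500 bp after the start in the expression table, and values are mean reads scaled to library size (RPM) over tiles of 2000 bp. H3K4me3 was at least 2-fold above the input of the same animal, with an adjusted p below 0.05 by limma, at 19 of 26 promoters, beside 56.3% of all promoters. The highest were Gphn, with 44.5 ± 1.29 RPM (SD, n = 3), Nlgn2, with 35.9 ± 2.49, Gabra2, with 31.4 ± 3.65, and Gabbr1, with 29.9 ± 2.57. The 7 that did not pass were Gabra6, Gabrp, Gabrr1, Gabrr2, Gabrr3, Slc6a13 and Gad1. H3K27me3 passed the same criterion at 6 promoters, beside 11.7% of all promoters, which were Gad2, Slc32a1, Gabra5, Gabrd, Slc6a13 and Gabrp. Gad2 carried 4.85 ± 0.585 RPM (5.87-fold over input), and Slc32a1 carried 4.72 ± 0.142 RPM (6.92-fold). At Gad2, Slc32a1, Gabra5 and Gabrd both marks passed. Gad2 and Slc32a1 were expressed at 36.2 and 11.8 RPKM in the same tissue, and bulk chromatin does not tell whether both marks lay in the same cells.

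Gad1 needed a second look at its start. The expression table places it at 70553072 on chromosome 2, 9057 bp before the RefSeq start, and there H3K4me3 was 0.174 ± 0.134 RPM, below input. At the RefSeq start, whose promoter is printed above, H3K4me3 was 12.1, 7.05 and 16.7 RPM in the +/+ animals (3.86 above input on the log2 scale, adjusted p 5.76e-05 by limma) and H3K27me3 was 4.97, 5.61 and 4.81 RPM (2.74 above input, adjusted p 0.000398). Windows at RefSeq starts were added after these values were seen. With them Gad1, Gad2 and Slc32a1, the 3 genes for making and packing GABA, all carried both marks.

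**Figure D2:**
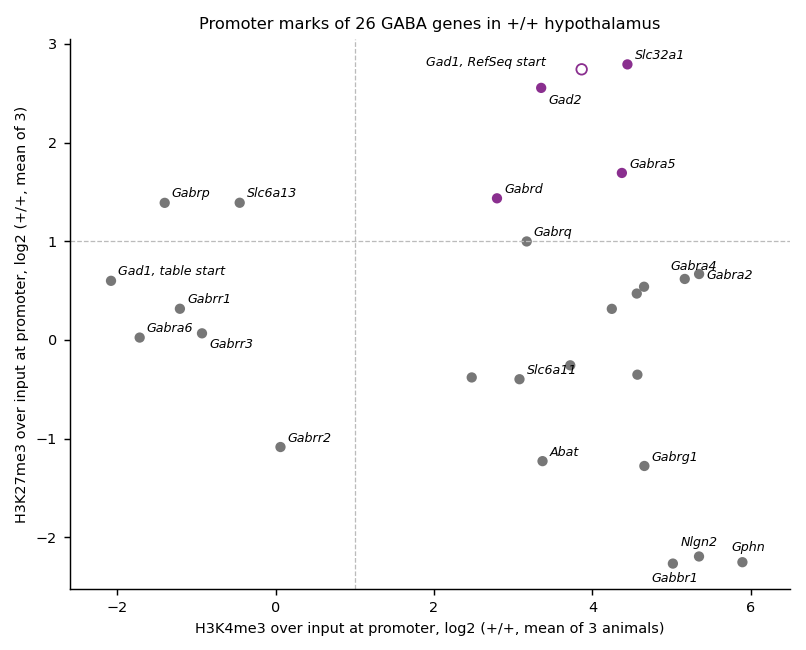
H3K4me3 over input (horizontal) and H3K27me3 over input (vertical) at the promoters of the 26 genes, as log2 ratios averaged over 3 +/+ animals, with dashed lines at 2-fold. Filled purple points are promoters that passed for both marks, and the open circle is Gad1 at its RefSeq start, which lies beside Gad2 and Slc32a1.

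H3K27me3 at Gad2 was lower in Δ/D329A. Over the Gad2 promoter it was 4.47, 5.52 and 4.56 RPM in +/+ and 2.29, 3.32 and 2.01 RPM in Δ/D329A, and the highest mutant animal lay below the lowest +/+ animal (log2 difference -0.93, SE 0.202). The limma fit over all 25952 promoters, low ones included, called no promoter (0% of all), with 2309 at an unadjusted p below 0.05, and the adjusted p of Gad2 was 0.393. Gad2 passed by limma on the 12891 promoters of at least 0.5 RPM (adjusted p 0.00385, with 1.72% of these promoters called), by edgeR on reads (adjusted p 0.00258, 0.842% called) and by limma after quantile normalization (adjusted p 0.0108, 0.566% called), and it was the only member promoter called in each of these 3 fits. In the fit on single tiles of at least 0.5 RPM, 5 tiles were called among the 1199 within 10 kb of a member, all of them lower and consecutive at Gad2, beside 0.0431% of 1540688 tiles over the genome. These tiles cover chromosome 2 from 22621001 to 22627000, which holds the promoter printed above and the first part of the gene. Their differences ran from -0.92 to -1.05 on the log2 scale with adjusted p between 0.00115 and 0.0247 (limma). At the tile with the highest level, centred 2796 bp after the start, the +/+ animals had 6.55, 7.09 and 6.35 RPM and the Δ/D329A animals 2.56, 4.01 and 3.35 RPM. The tiles at member genes were chosen for testing after their values were seen. Leaving out 1 animal at a time left 2 or 3 called tiles, all at Gad2, except that 18 were called without Δ/D329A replicate 2, at Gad2, Gad1 and Slc32a1.

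Slc32a1 and Gad1 had smaller differences of the same sign. Slc32a1 had 4.63, 4.65 and 4.88 RPM of H3K27me3 over its promoter in +/+ and 4.20, 3.50 and 2.74 RPM in Δ/D329A, without overlap (-0.45 on the log2 scale, SE 0.161, adjusted p 0.523 by limma). At the RefSeq start of Gad1 the animals had 4.97, 5.61 and 4.81 RPM against 3.09, 4.34 and 2.56 RPM (-0.64, SE 0.198), with an adjusted p of 0.504 by limma over all RefSeq starts, 0.0789 by edgeR, 0.129 by limma after quantile normalization and 0.0350 by limma on the starts of at least 0.5 RPM, of which 1.41% were called. Of the tiles tested at each gene, 43 of 88 at Gad2, 14 of 69 at Gad1 and 16 of 23 at Slc32a1 were lower with an unadjusted p below 0.05, and none was higher, beside 6.46% of all H3K27me3 tiles in either direction; neighbouring tiles overlap and are not independent. Over whole gene bodies H3K27me3 differed by -0.63 (SE 0.183) at Gad2, -0.53 (SE 0.177) at Slc32a1 and -0.34 (SE 0.170) at Gad1. No member body was called by limma or edgeR, beside 0.00846% of all bodies called by limma. By limma 3 of 26 member bodies had an unadjusted p below 0.05, beside 3071 of all 23654 bodies. By edgeR 9 of 26 did, beside 3567 of all 23474 bodies. By the values above, Gad2, Gad1 and Slc32a1 expression differed by -0.09, -0.13 and 0.11 on the log2 scale. The labels do not match these RNA libraries to the ChIP animals, and sex may differ between them.

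**Figure D3:**
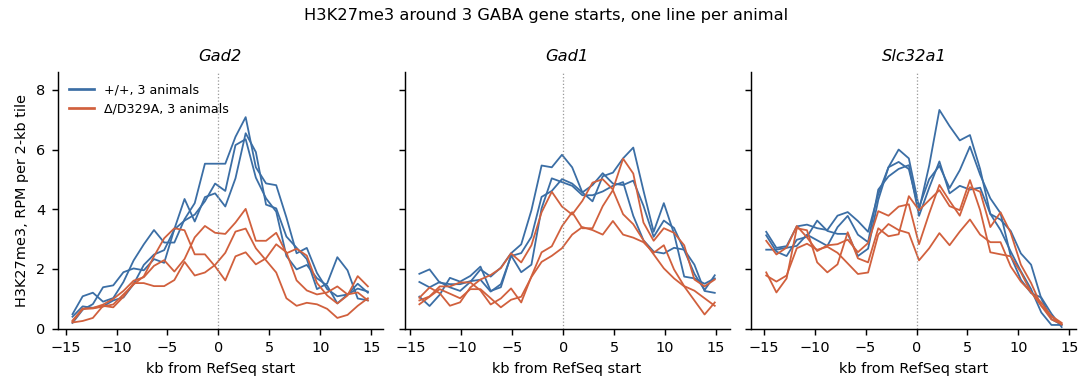
H3K27me3 in RPM per tile of 2000 bp against the distance in kb from the RefSeq start of Gad2, Gad1 and Slc32a1, with 1 line per animal (3 +/+, 3 Δ/D329A). At Gad2 the +/+ lines rise to 6.35 to 7.09 RPM in the tile where the Δ/D329A lines stand at 2.56 to 4.01 RPM; at Gad1 and Slc32a1 the lines lie closer.

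Differences at the other members with H3K27me3 were smaller. Gabra5, an alpha subunit gene, had 2.05, 2.25 and 2.48 RPM in +/+ and 1.95, 1.81 and 1.78 RPM in Δ/D329A (-0.27, SE 0.103, adjusted p 0.532 by limma). Slc6a13 was higher without overlap by a small amount, with 2.75 to 3.002 RPM in +/+ and 3.07 to 3.13 RPM in Δ/D329A (0.12, SE 0.079, adjusted p 0.680). Gabrd, whose expression was higher, had 2.38 to 2.58 RPM in +/+ and 3.16, 2.16 and 3.50 RPM in Δ/D329A (0.20, SE 0.184). Gabrp differed by 0.24 (SE 0.132). Gabrr2, the member with the highest fold difference in expression, had 0.432 ± 0.192 RPM over its promoter, below its input in each +/+ animal, and a difference of 0.19 (SE 0.370).

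Several transcription factors that specify GABA neurons also had less H3K27me3 in Δ/D329A. All 11 promoters on this list were above input in +/+. Dlx2 had 3.96, 3.63 and 3.82 RPM in +/+ and 2.66, 2.37 and 1.35 RPM in Δ/D329A (-0.86, SE 0.247), and Dlx5 had 5.003, 4.59 and 4.29 RPM against 2.59, 3.19 and 1.98 RPM (-0.84, SE 0.180). Dlx1 (-0.61, SE 0.134) and Dlx6 (-0.63, SE 0.158), which are paired with them in the genome, were lower without overlap too. These 4 passed by limma on promoters of at least 0.5 RPM, with adjusted p between 0.00723 and 0.0244, and by edgeR. Of all promoters in these fits 1.72% and 0.842% were called. As paired genes, the 4 Dlx promoters are not independent of each other. Dlx2 and Dlx5 passed after quantile normalization (0.566% of all called), and none of the 11 passed in the fit over all promoters. In that fit 8 had an unadjusted p below 0.05 by limma, beside 2309 of all 25952 promoters. Of the 8, 7 were lower in Δ/D329A and the other was higher. The list was drawn up with earlier results of these libraries known.

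H3K4me3 at member promoters was not called in either direction. By limma 0 of 26 promoters and 0% of all 25952 passed, with 1 member and 900 promoters at an unadjusted p below 0.05, and edgeR, the fit on promoters of at least 0.5 RPM and quantile normalization called no member. At Gabra2 the promoter had 31.9, 27.5 and 34.7 RPM in +/+ and 23.3, 37.6 and 31.0 RPM in Δ/D329A (-0.05, SE 0.208), and its H3K27me3 was 0.692, 2.01 and 0.992 RPM against 0.908, 1.07 and 1.17 RPM (-0.10, SE 0.362). These ranges are nested. The sign of both differences turned under some scalings, and without Δ/D329A replicate 1 that of H3K4me3 was 0.13. Gad2 had 8.10, 6.58 and 11.4 RPM of H3K4me3 in +/+ and 9.69, 13.4 and 19.3 RPM in Δ/D329A, with overlap (0.68, SE 0.317). Gabrr2 had 1.14, 0.831 and 1.12 RPM, about the level of input, against 1.73, 0.868 and 1.65 RPM (0.38, SE 0.385). Gabrd had 6.48, 4.92 and 8.90 RPM in +/+ and 2.63, 15.9 and 3.001 RPM in Δ/D329A, so that 1 mutant animal was the highest and the other 2 were the lowest of the 6. The 1 member at an unadjusted p below 0.05 was Gabrr3, whose promoter was below input in both genotypes. Of the 693 H3K4me3 tiles tested at member genes none was called by limma, beside 0.356% of 311671 tiles over the genome, and 6.06% had an unadjusted p below 0.05, beside 6.55% over the genome. The number called moved to 15 without Δ/D329A replicate 2, at Gabrr2, Gabrd, Gabra2, Gabra4, Gabrb2, Nlgn2 and Gabbr1, to 1 without +/+ replicate 2 or Δ/D329A replicate 3, to 1 with a minimum of 1 RPM, to 2 with a replicate block and to 3 with a block on mitochondrial coverage. At an unadjusted p below 0.05 by limma, 6 of 27 H3K4me3 tiles at Gabra2 and 6 of 35 at Gabbr1 were lower, and none higher. At Gabrr2 4 of 7 were higher and none lower. Neighbouring tiles overlap and are not independent.

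H3K36me3 over the body of Gabra2 was slightly lower in Δ/D329A. It was 1.36, 1.22 and 1.07 RPM in +/+ and 1.01, 1.05 and 0.963 RPM in Δ/D329A, just without overlap (-0.24, SE 0.090), with an adjusted p of 0.289 by limma and 0.0496 by edgeR. Limma called 0 of 26 member bodies and 0% of all 23654, with 5 members and 3814 of all bodies at an unadjusted p below 0.05. EdgeR called 2 members, Gabra2 lower and Gad2 higher, beside 1.74% of all bodies. Gad2 had 1.32, 1.07 and 1.38 RPM in +/+ and 1.74, 1.38 and 1.83 RPM in Δ/D329A, with the lowest mutant and the highest +/+ animal nearly equal (0.36, SE 0.133, adjusted p 0.285 by limma and 0.0333 by edgeR). Of the H3K36me3 tiles tested, 21 of 141 at Gabra2 were lower and none higher with an unadjusted p below 0.05, and 32 of 84 at Gad2 were higher and none lower. Gabbr1, the only member whose body passed 2-fold over input for H3K36me3 in +/+ (16.1% of all bodies passed), had 2.09, 2.30 and 2.24 RPM in +/+ and 1.96, 2.06 and 1.90 RPM in Δ/D329A (-0.15, SE 0.051, adjusted p 0.260 by limma). Gphn was lower without overlap as well (-0.17, SE 0.058). Among 2973 H3K36me3 tiles at members 0 were called by limma, beside 0.00542% over the genome, and 8.21% had an unadjusted p below 0.05, beside 6.68% over the genome.

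**Figure D4:**
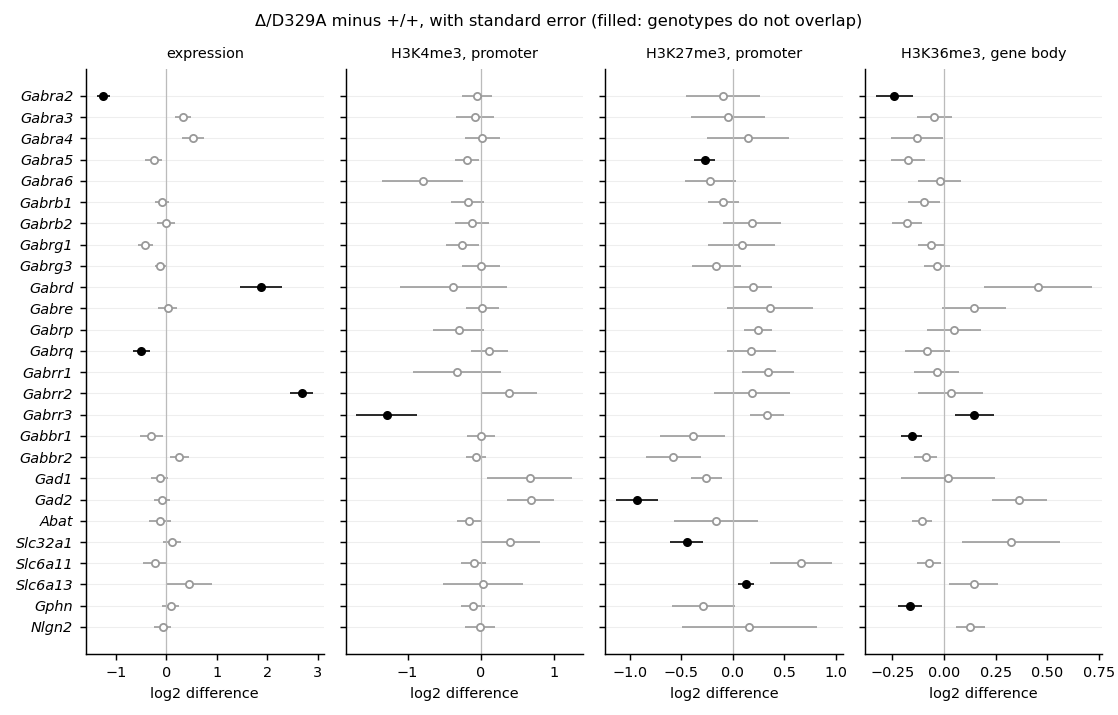
Log2 differences, Δ/D329A minus +/+, with standard errors for expression (5 and 4 animals), promoter H3K4me3, promoter H3K27me3 and gene body H3K36me3 (3 and 3 animals) of each member, on a separate horizontal scale in each panel. Filled points mark members whose genotypes did not overlap. Gabra2 is one in expression (-1.25) and in H3K36me3 (-0.24), and Gad2 in H3K27me3 (-0.93) but not in expression. With 3 and 3 animals such separation can arise by chance, and its share over all regions is not given.

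Along the chromosome 5 cluster no tile was called for any of the 3 marks. In a region reaching 50 kb past the outer genes 134 H3K4me3, 287 H3K27me3 and 1075 H3K36me3 tiles reached 0.5 RPM, of which 10, 14 and 76 had an unadjusted p below 0.05 by limma. Over the genome 6.55%, 6.46% and 6.68% of the tiles of these marks did. H3K4me3 stood in sharp peaks at the starts of all 4 genes, with 31.4 ± 3.65 RPM at Gabra2, 21.5 ± 2.53 at Gabrg1, 21.0 ± 2.55 at Gabra4 and 19.5 ± 2.24 at Gabrb1 in +/+ (n = 3), and none of these promoters carried H3K27me3 above the criterion. H3K36me3 over the bodies differed by -0.24 at Gabra2, -0.06 (SE 0.064) at Gabrg1, -0.13 (SE 0.127) at Gabra4 and -0.10 (SE 0.078) at Gabrb1. Without Δ/D329A replicate 2, 3 H3K4me3 tiles of the cluster were called.

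**Figure D5:**
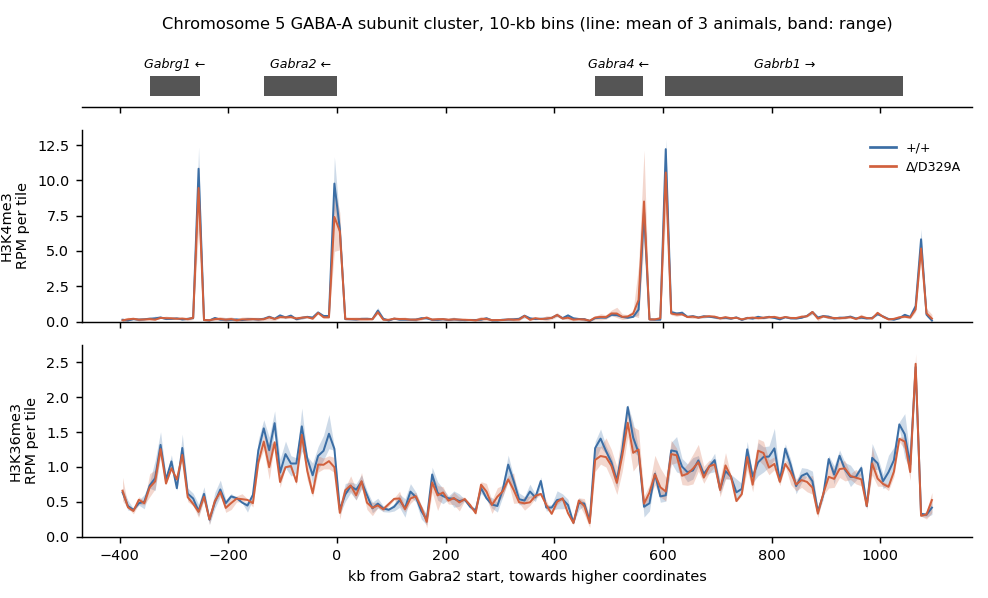
H3K4me3 and H3K36me3 along the chromosome 5 cluster in bins of 10 kb, in RPM per tile, against the distance in kb from the Gabra2 start; lines are means of 3 animals and bands their range, and arrows on the gene bars give the direction of transcription. The H3K4me3 peaks of both genotypes lie at the same starts, and the H3K36me3 lines part slightly over Gabra2.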

How the data were processed

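RNA-seq and native ChIP-seq of hypothalamus were analysed from 2 deposited tables; bisulfite libraries were not analysed here. The authors trimmed reads and mapped them to GRCm38 (the submitters' processing notes name Trim Galore 0.4.3, HISAT2 2.0.5 and Bowtie2 2.3.2) and quantified them in SeqMonk. The deposited expression values are log2 RPKM per gene; 1 further Δ/D329A library of low quality had been left out by the authors. The deposited ChIP values are a signal, RPM (reads scaled to mapped reads of the library), in tiles of 2000 bp every 1000 bp. Whole reads were recovered from both tables for edgeR 4.0.16 and DESeq2 1.42.0.

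The 26 members and all lists were chosen with earlier results of these data known. Named were all members, the cluster genes within 2 Mb and list genes whose genotypes did not overlap. One list gene is counted but not reported here. Expression was fitted with limma 3.58.1 on genes of at least 0.1 RPKM in 4 libraries (adjusted p below 0.01). Promoters, gene bodies (from 500 bp after the start to the end) and tiles of at least 0.5 RPM were fitted with limma on log2(RPM + 0.1), with Benjamini-Hochberg adjustment over all features and a threshold of 0.05; a fold change is on that scale. Marks were compared with input within +/+ animals. The scripts were tested on simulated data. The fit over all promoters was the least sensitive for H3K27me3 there, so fits on promoters of at least 0.5 RPM and on reads are given beside it. Standard errors are from limma, which draws the spread between animals of each feature towards a trend over all features. The p-values set a genotype difference against variation between animals. With 3 ChIP animals of each genotype, values without overlap can arise by chance. The share of all regions without overlap is not given for the marks. Same-numbered samples of the 2 genotypes come from different animals, and no pairing was used. Their deviations correlated by 0.137, -0.0512, -0.0477 and -0.0543 for RNA. At promoters the values ran from -0.261 to 0.234 for H3K4me3 and from 0.0125 to 0.0775 for H3K27me3. Over bodies they ran from -0.291 to 0.305 for H3K4me3, 0.00303 to 0.127 for H3K27me3 and 0.0236 to 0.0401 for H3K36me3. For H3K27me3 promoters and H3K36me3 bodies each library correlated best with its own number.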

Additional observations from a re-analysis of the deposited data

Results flagged for a closer look

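Of the 44 groups of libraries examined for the 22 tested members, 1 held a library far from the others of its group by Dixon's criterion; chance gives about 1 in 20. Gabrq in Δ/D329A replicate 2 had a log2 RPKM of 2.64, while the other 3 libraries lay between 2.87 and 2.92. That library is the one that sets the low end of Gabrq; without it the other 3 Δ/D329A libraries still lay below every +/+ library.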

How the results depend on the processing

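Over 411 alternative values 345 kept their direction and side of the threshold, or stayed within 1.5 times of a count. For expression, Gabra2 stayed between -1.31 and -1.20 when 1 library was left out, and the number of members called lay between 0 and 2 and that in the cluster between 0 and 1. DESeq2 called 5 members, 2 of them in the cluster, and 7 genes of the pathway and marker lists, where edgeR called 2. A replicate block gave -1.31 for Gabra2, just outside the threshold, 1 member called and 0 in the cluster; the numbers link no animals, and not every library correlated best with its own number. For H3K27me3, quantile normalization, edgeR and the filter at 0.5 RPM each called 1 member promoter, Gad2, at -0.94, -0.91 and -0.93. The tiles called at members numbered 2 with every other tile, 8 with the replicate block and 2 to 18 with 1 animal left out. For H3K36me3 edgeR called 2 member bodies and gave -0.27 for Gabra2, while a pseudocount of 1 RPM gave -0.14 and the other settings on all animals lay between; with 1 animal left out it was -0.33 to -0.16. The Gabra2 promoter difference turned to 0.026 (quantile normalization), 0.024 (TMM factors) and 0.061 (ratio to input) for H3K4me3, with -0.21 to 0.13 when 1 animal was left out, and to 0.019 (ratio to input) for H3K27me3, with -0.41 to 0.30. Cluster tiles called for H3K4me3 numbered 0 to 3 with 1 animal left out. Over input in +/+, quantile normalization left 6 promoters for H3K4me3 and 2 bodies for H3K36me3; a pseudocount of 1 RPM left 2 promoters for H3K27me3 and 0 bodies for H3K36me3, a limit of 3-fold left 3 and 0, and a limit of 1.5-fold gave 3 bodies for H3K36me3. The causes were not tested. H3K4me3 read depth between peaks was low, with a median of 1 to 5 reads per tile, which limits what tiles outside peaks can show.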
